A study of Mus musculus with 6 samples.

Results

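The genes described here handle cholesterol in the vessel wall: *Abca1*, *Abcg1*, *Apoe* and *Scarb1*, which serve its export, the liver X receptor (LXR) genes *Nr1h2* and *Nr1h3*, the scavenger receptor genes *Msr1* and *Olr1*, the endocytic receptor gene *Lrp1*, and *Mylip*. They were taken by symbol from the deposited count table, 10 of the 55341 genes it lists. RNA from the aortic arch and thoracic aorta of 3 miRNA-26b-/- and 3 miRNA-26b+/+ mice was sequenced, 1 library per mouse, the miRNA-26b-/- libraries being M2626, M2627 and M2628 and the controls M2629, M2630 and M2631. All mice were 8 weeks of age, on chow diet and of the strain labelled C57BL/6NCrl. The miRNA-26b-/- mice lack both arms of the miRNA. The floxed locus, made in embryonic stem cells of a 129/Sv line, was deleted with a tamoxifen-dependent Cre that was later bred out. The paper describes the founding strains as a mix of 129/Sv and C57BL/6, and the mice studied as on the C57BL/6 background.

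Most cells cannot break down cholesterol, and macrophages and smooth muscle cells that take up modified lipoproteins through scavenger receptors turn into foam cells unless they export it. LXRα (*Nr1h3*) and LXRβ (*Nr1h2*) are nuclear receptors that bind oxysterols as dimers with RXR and switch on the exporters *Abca1* and *Abcg1*, *Apoe* and *Mylip*. ABCA1 loads lipid-poor apolipoprotein A-I, ABCG1 loads mature high-density lipoprotein, and MYLIP (IDOL) marks the LDL receptor for degradation.

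Total counts ran from 25706728 to 33345037 per library. The targeted *Mir26b* got 20 counts in M2630 and 0 in each of the other 5 libraries, so the table cannot check the genotypes. The labels call the material endothelial cells of the aorta, but 7 smooth muscle markers summed to 31458 to 42421 CPM, the counts scaled to a common library size, and 8 endothelial markers to 450 to 1695 CPM. Lymphocyte markers were low, with 0 to 6.22 CPM summed over 6 genes and no count of *Cd3e* in any library. In whole vessel, fewer cells of a type and less RNA per cell cannot be told apart.

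The deleted miRNA reads mRNAs through its seed, so its sequence and its matches in the 10 genes come first. From RefSeq, miRNA-26b-5p on chr1:74394324-74394344 of GRCm38.p6 (forward strand) shares its seed, bases 2 to 8 in capitals, with miRNA-26a-5p, which comes from loci on chromosomes 9 and 10 that were not targeted:
mmu-miR-26b-5p: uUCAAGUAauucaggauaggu
mmu-miR-26a-5p: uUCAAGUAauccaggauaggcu

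For each gene, the longest 3′ UTR in GENCODE M21 (GRCm38) was scanned for matches to this seed. An 8mer is TACTTGAA, a 7mer-m8 is TACTTGA without the final A, and a 7mer-A1 is ACTTGAA without the first T. Only *Abca1* and *Olr1* held a site, 2 of 10 genes or 20.0%, against 18.3% of 21020 genes with an annotated 3′ UTR and 21.4% of the 13464 of them that were tested. The share in the 10 genes is therefore near the background. The 3′ UTR of *Abca1* (3156 bases) held a 7mer-A1 at chr4:53033697-53033725 and a 7mer-m8 at chr4:53032503-53032531, and that of *Olr1* (2422 bases) held an 8mer at chr6:129487045-129487074, all on the reverse strand. *Arl4c*, an LXR target gene that is not among the 10, held an 8mer at chr1:88699474-88699503 (reverse strand) and is shown for comparison. In the pathway lists below, *Abca5*, *Soat1*, *Nceh1* and *Lrp1b* also held an 8mer. As background, 4.19% of the 21020 genes and 4.92% of the 13464 tested held an 8mer. Each site is given in the sense of the mRNA, written as DNA, with the match in capitals:
Abca1 7mer-A1: tagtgaaaatgACTTGAAgttagttcatt
Abca1 7mer-m8: acacccttgccTACTTGAtagcatcaata
Olr1 8mer: gatagtttgccTACTTGAAttctgtgtacc
Arl4c 8mer: acttcacagttTACTTGAAagaggctttgg

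None of the 10 genes passed the test of a difference between miRNA-26b-/- and miRNA-26b+/+ aortas. Of the 9 that passed the filter on low counts, 0 had an unadjusted p-value under 0.05 from edgeR's quasi-likelihood test, where 6.47% of the 16017 genes tested did, and 0 had an adjusted p-value under 0.05, where 0.00624% did. With DESeq2 and with limma voom the 9 genes also gave 0 at either threshold. The CPM of the groups overlapped for all 9, whereas 11.5% of the genes tested had groups that did not overlap. Their log2 fold changes, miRNA-26b-/- against miRNA-26b+/+, ran from -0.36 to 0.35 with a median of -0.18, beside a median of 0.01 over all genes tested. With 1 library left out the median of the 9 ran from -0.24 (without M2627) to -0.07 (without M2631), and it was -0.11 without M2626 and without M2628. 5 of the 9 lay below 0, as did 48.6% of all genes tested. Adjusted p-values of the 9 ran from 0.829 to 0.997. The exact two-sided permutation test on CPM gave p = 0.2 to 1 over the 10 genes, and 3 mice against 3 cannot give less than 0.1.

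**Figure D1:**
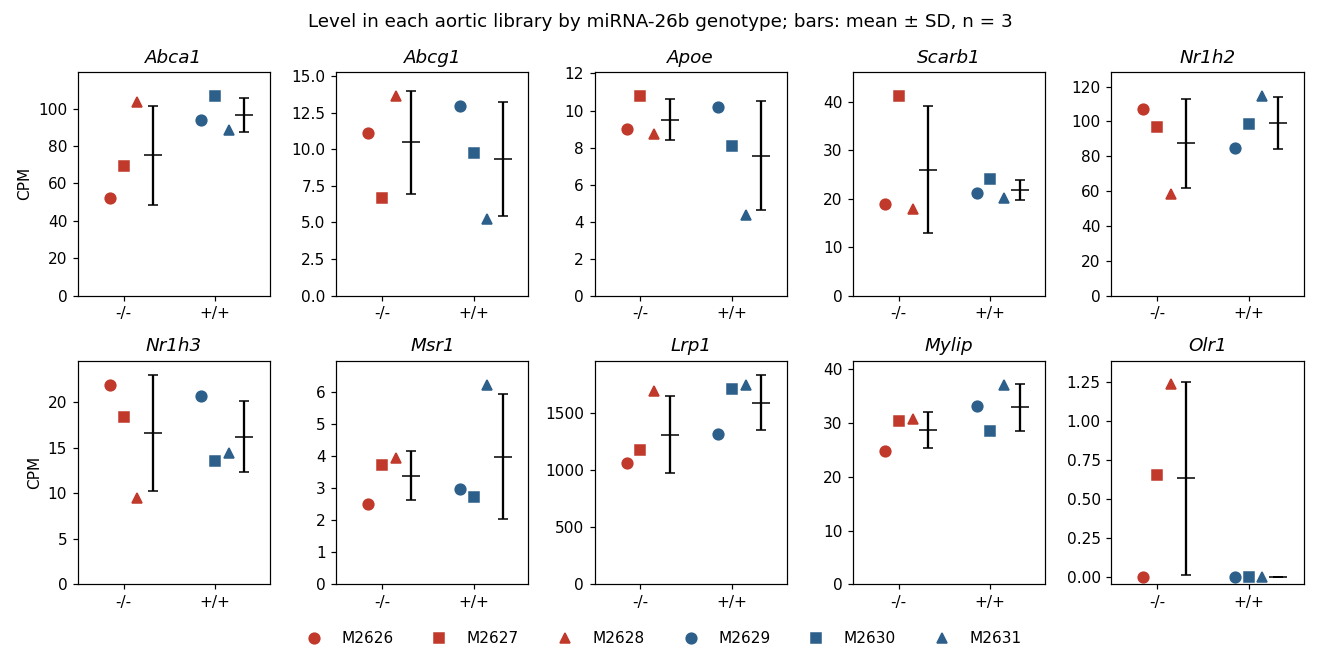
CPM of each of the 10 genes in the 3 miRNA-26b-/- (red) and 3 miRNA-26b+/+ (blue) libraries, with symbols for single libraries and black bars for the mean ± SD (n = 3). The groups overlap in every panel, and the low *Abca1* and *Lrp1* values of M2626 and M2627 stand beside an M2628 at the miRNA-26b+/+ level.

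*Abca1*, the exporter to lipid-poor apolipoprotein A-I, lies on chr4:53030787-53159895 (reverse strand). Its level was 52.1, 69.1 and 104 CPM in M2626, M2627 and M2628, and 94.1, 107 and 88.7 CPM in M2629, M2630 and M2631. M2626 and M2627 were the lowest of the 6 libraries, while M2628 was second only to M2630, so the groups overlapped. Averaged over the 3 mice of a genotype, this is 75.0 ± 26.2 CPM without and 96.6 ± 9.27 CPM with the miRNA (SD, n = 3 each). On the log2 scale the difference was -0.36 (standard error 0.219, 95% interval -0.83 to 0.11, adjusted p = 0.829 from edgeR). This interval covers levels from 0.563 to 1.08 times that of miRNA-26b+/+ mice. Leaving out 1 library at a time moved the log2 fold change from -0.66 without M2628 (adjusted p = 0.179 from edgeR) to -0.17 without M2626 (adjusted p = 0.956 from edgeR).

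*Abcg1*, the exporter to mature high-density lipoprotein on chr17:31057675-31117988, had 11.1, 6.68 and 13.7 CPM in the miRNA-26b-/- and 13, 9.77 and 5.26 CPM in the miRNA-26b+/+ libraries. Each genotype held 1 low library, M2627 and M2631, and the spread within a genotype exceeded the distance between the means. Its log2 fold change was 0.14 (standard error 0.439, 95% interval -0.80 to 1.08, adjusted p = 0.987 from edgeR). It changed sign without M2628 (-0.11) and without M2631 (-0.16), and was highest without M2629 (0.47).

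*Apoe*, the apolipoprotein that carries cholesterol away from macrophages and binds receptors of the LDL receptor family, lies on chr7:19696109-19699188. Its level was 9.03, 10.8 and 8.72 CPM in the miRNA-26b-/- and 10.2, 8.09 and 4.37 CPM in the miRNA-26b+/+ libraries. M2631 was the lowest library, as it was for *Abcg1*, and the other 5 lay close together. A log2 fold change of 0.35 (standard error 0.430, 95% interval -0.57 to 1.26, adjusted p = 0.939 from edgeR) was 0.05 without M2631 and 0.64 without M2629.

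*Scarb1*, the receptor that exchanges cholesterol with high-density lipoprotein (SR-BI), lies on chr5:125277087-125341094. Its level was 18.9, 41.2 and 17.9 CPM in the miRNA-26b-/- and 21.1, 24.1 and 20.2 CPM in the miRNA-26b+/+ libraries. M2627 stood above the other 5, and M2626 and M2628 were the lowest, so the miRNA-26b-/- libraries lay on both sides of the controls. For *Scarb1* the log2 fold change was 0.29 (standard error 0.326, 95% interval -0.40 to 0.99, adjusted p = 0.932 from edgeR), and ran from -0.24 without M2627 to 0.51 without M2628.

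Of the LXR genes, *Nr1h2* on chr7:44549616-44553951 had 107, 96.6 and 58.5 CPM in the miRNA-26b-/- and 84.9, 98.3 and 115 CPM in the miRNA-26b+/+ libraries. *Nr1h3* on chr2:91184061-91202834 had 21.9, 18.4 and 9.50 CPM and 20.7, 13.5 and 14.4 CPM. Both receptors were lowest in M2628, the miRNA-26b-/- library with the most *Abca1* and *Abcg1*, the genes the receptors are known to drive. Between genotypes the log2 fold change was -0.18 for *Nr1h2* (standard error 0.214, 95% interval -0.64 to 0.27, adjusted p = 0.934 from edgeR). That of *Nr1h3* was 0.02 (standard error 0.349, 95% interval -0.72 to 0.77, adjusted p = 0.997 from edgeR). With 1 library left out the value ran from -0.35 without M2626 to 0.04 without M2628 for *Nr1h2*, and from -0.20 to 0.29 without the same libraries for *Nr1h3*. *Nr1h3* shares 34 exon bases with the gene *Gm13783*, and the counting credits a read there to both.

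Per kilobase of exon, *Nr1h2* stood above *Nr1h3* in 6 of 6 libraries. The ratio of their RPKM (CPM per kilobase of exon) was 3.67, 3.94 and 4.62 in the miRNA-26b-/- and 3.07, 5.46 and 5.96 in the miRNA-26b+/+ libraries, with no difference beyond the spread (exact two-sided permutation test, p = 0.5). LXRβ was the more abundant LXR transcript in both genotypes.

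Among the receptors, *Lrp1*, a large endocytic receptor that takes up remnants carrying apolipoprotein E and restrains growth-factor signalling in smooth muscle, lies on chr10:127538161-127621148. It had 1062, 1176 and 1700 CPM in the miRNA-26b-/- and 1316, 1711 and 1752 CPM in the miRNA-26b+/+ libraries. As for *Abca1*, M2626 and M2627 were the lowest of the 6 and M2628 lay among the controls. The log2 fold change of -0.28 (standard error 0.171, 95% interval -0.64 to 0.09, adjusted p = 0.831 from edgeR) had the narrowest interval of the 9 genes. It was -0.51 without M2628 (adjusted p = 0.173 from edgeR) and -0.15 without M2626 (adjusted p = 0.952 from edgeR).

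*Msr1*, scavenger receptor A of macrophages on chr8:39581685-39642673, was counted 64, 125 and 111 times in M2626 to M2628 and 91, 75 and 188 times in M2629 to M2631. Scaled to library size this is a mean of 3.39 ± 0.775 CPM without and 3.97 ± 1.95 CPM with the miRNA (SD, n = 3 each), with M2631 above the rest. The log2 fold change of -0.22 (standard error 0.621, 95% interval -1.55 to 1.10, adjusted p = 0.984 from edgeR) was the least precise of the 9, and it ran from -0.41 without M2630 to 0.26 without M2631. The interval allows a halving as well as a doubling.

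*Olr1*, the receptor for oxidised LDL (LOX-1) on chr6:129485244-129507165, was counted 0 times in M2626, 22 in M2627 and 35 in M2628, and 0 times in every control library. M2626 was at 0 like the controls, so the groups overlapped, and the gene fell below the filter and was not tested. A count of 0 allows up to 3 counts, which is 0.0893 to 0.117 CPM from the largest to the smallest library, for counting error only. The highest value was 1.24 CPM in M2628. With the filter on CPM removed, the log2 fold change was 7.27 (unadjusted p = 0.0833 and adjusted p = 0.891 from edgeR). That estimate rests on the 22 and 35 counts of M2627 and M2628. Its 8mer is printed above.

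*Mylip*, the ubiquitin ligase that lowers the LDL receptor, lies on chr13:45389742-45412022 and had 24.9, 30.4 and 30.8 CPM in the miRNA-26b-/- and 33.1, 28.4 and 37.1 CPM in the miRNA-26b+/+ libraries. It varied little between mice of a genotype, with a coefficient of variation of 11.6% and 13.2%, where the median over all genes tested was 27.6% and 23.2%. The log2 fold change was -0.19 (standard error 0.231, 95% interval -0.69 to 0.30, adjusted p = 0.934 from edgeR), and ran from -0.28 without M2630 to -0.11 without M2631 or M2626.

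**Figure D2:**
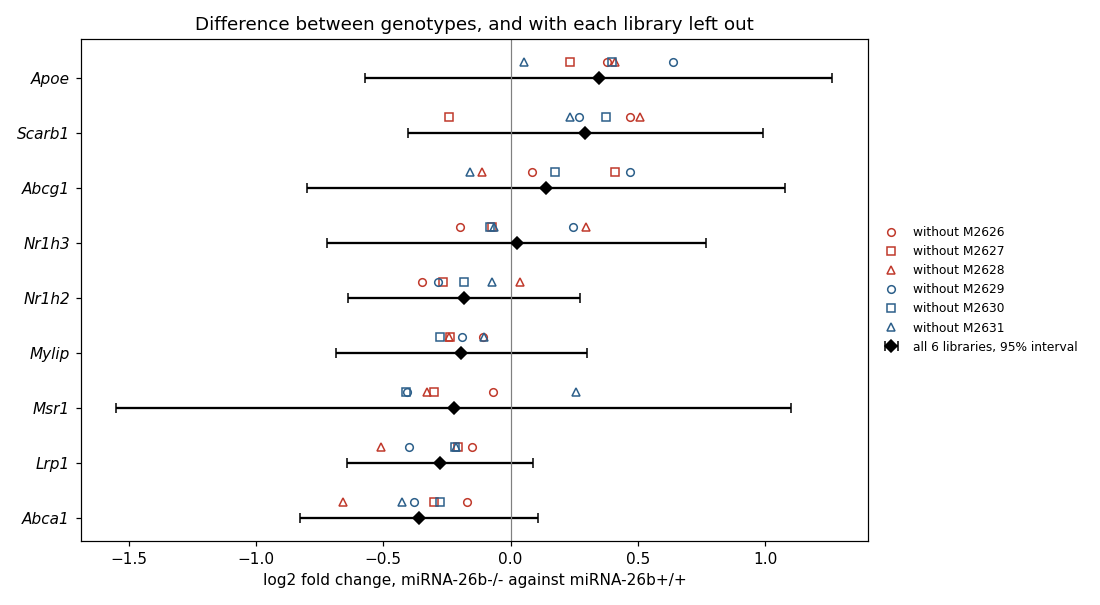
Log2 fold change of the 9 tested genes, miRNA-26b-/- against miRNA-26b+/+, with its 95% interval (black) and, above each, the values with 1 library left out (open symbols, red for miRNA-26b-/- and blue for miRNA-26b+/+). Every interval holds 0, and *Abca1* and *Lrp1* lie farthest below it when M2628 is left out.

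These intervals bound the differences that the data allow. For 6 of the 9 the 95% interval stayed within a halving and a doubling, and for *Abcg1*, *Apoe* and *Msr1* it did not. Among the omissions of a single library, only that of M2628 brought any of these genes under an unadjusted p-value of 0.05, namely *Abca1* (unadjusted p = 0.00335) and *Lrp1* (unadjusted p = 0.00294, both from edgeR's fit across all genes). In that fit 10.8% of all genes tested passed the same threshold.

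Per kilobase, *Lrp1* was the most abundant of the 10 genes, at 74.1 ± 19.2 RPKM in miRNA-26b-/- and 89.9 ± 13.6 RPKM in miRNA-26b+/+ mice (SD, n = 3 each). *Nr1h2* followed at 26.1 ± 7.65 and 29.6 ± 4.45 RPKM, and neither range touched its neighbour. *Mylip* (8.87 and 10.2 RPKM, means of the genotypes), *Abca1* (7.23 and 9.32), *Nr1h3* (6.60 and 6.45), *Apoe* (4.45 and 3.53) and *Scarb1* (3.06 and 2.56) formed a run in which the 6-library range of each gene overlapped that of the next. *Scarb1* stood above *Abcg1* (1.44 and 1.28 RPKM) in 6 of 6 libraries. *Abcg1* and *Msr1* (0.534 and 0.627 RPKM) overlapped, and *Olr1* was last, at 0.177 RPKM and 0.

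**Figure D3:**
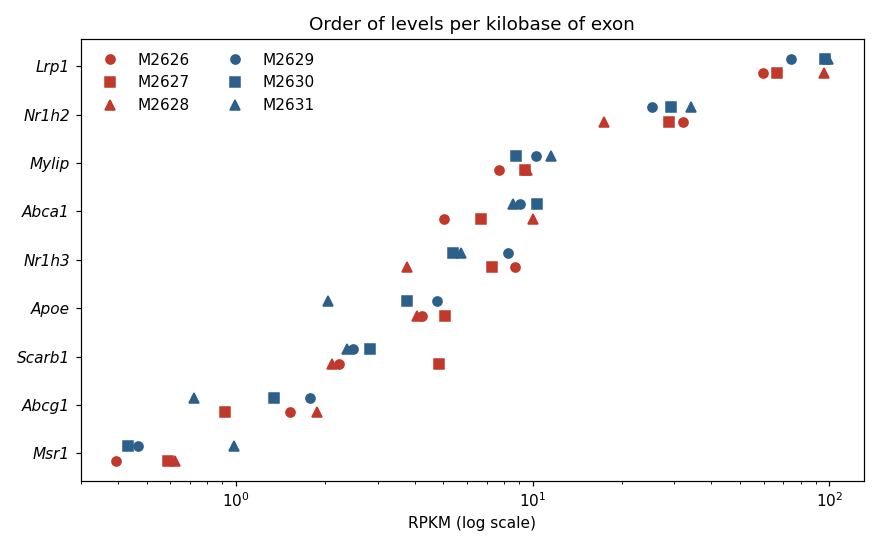
RPKM on a log scale in each library for 9 of the 10 genes, ordered by the mean of the 6 libraries; *Olr1* is left out because it was at 0 in 4 libraries. *Lrp1* and then *Nr1h2* stand clear of the rest, and red and blue symbols mix along each line.

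The libraries also differed in the summed levels of cell type markers, and some of the 10 genes were low or high in the same libraries. Summed over 8 endothelial markers the level was 450, 470 and 1695 CPM in the miRNA-26b-/- and 1187, 1632 and 1435 CPM in the miRNA-26b+/+ libraries, and all 8 had a log2 fold change below 0, with 1 (*Tek*) under an unadjusted p-value of 0.05. Summed over 12 macrophage markers it was 348, 417 and 960 CPM and 596, 656 and 674 CPM, and 10 of 12 lay below 0, none with an unadjusted p-value under 0.05. M2626 and M2627 were the lowest and M2628 the highest in both lists, and *Abca1* and *Lrp1* were lowest in the same 2 libraries. Counted after this was seen, M2626 and M2627 lay below all other libraries for 12 of 12 macrophage and 6 of 8 endothelial markers. They also did so for 4 of 7 fibroblast and 1 of 7 smooth muscle markers, and for 0 in each other marker list. The share over all genes tested was 9.95%. *Pecam1* had 185, 175 and 716 CPM in the miRNA-26b-/- and 488, 631 and 593 CPM in the miRNA-26b+/+ libraries, and *Csf1r* had 45.3, 64.2 and 123 CPM and 79.2, 88.7 and 121 CPM. The endothelial exceptions were *Kdr*, lowest in M2628 (8.83 CPM against 22.0 and 29.7 CPM in M2626 and M2627), and *Egfl7* (38.4, 24.6 and 31.2 CPM in M2626, M2627 and M2628). The part of these cells in the values of *Abca1* and *Lrp1* was not tested.

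*Scarb1* was highest in M2627, where 7 white adipocyte markers summed to 2741 CPM against 669 to 1852 CPM in the other 5 libraries. Sympathetic neuron markers also peaked there (358 CPM against 58.3 to 147 CPM), as did cardiac muscle markers (319 CPM against 18.8 to 287 CPM). *Apoe* and *Abcg1* were lowest in M2631, the library with the least adipocyte signal (669 CPM for white and 154 CPM for brown markers). In M2627, which had the most (2741 and 485 CPM), *Apoe* was highest (10.8 CPM). *Abcg1* went the other way there, at 6.68 CPM, its next lowest value. Fibroblast markers were highest in M2628 (14487 CPM against 8208 to 10274 CPM), where both LXR genes were lowest. The part of these tissues in the values was not tested. Schwann cell markers were higher in miRNA-26b-/- mice (346 to 531 CPM against 218 to 287 CPM, with 5 of 6 genes under an unadjusted p-value of 0.05), as were skeletal muscle markers (5 of 6 genes, 8.40 to 88.1 CPM against 2.18 to 11.9 CPM). Erythroid markers ran from 85.7 CPM in M2627 to 930.4 CPM in M2626, both miRNA-26b-/-.

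**Figure D4:**
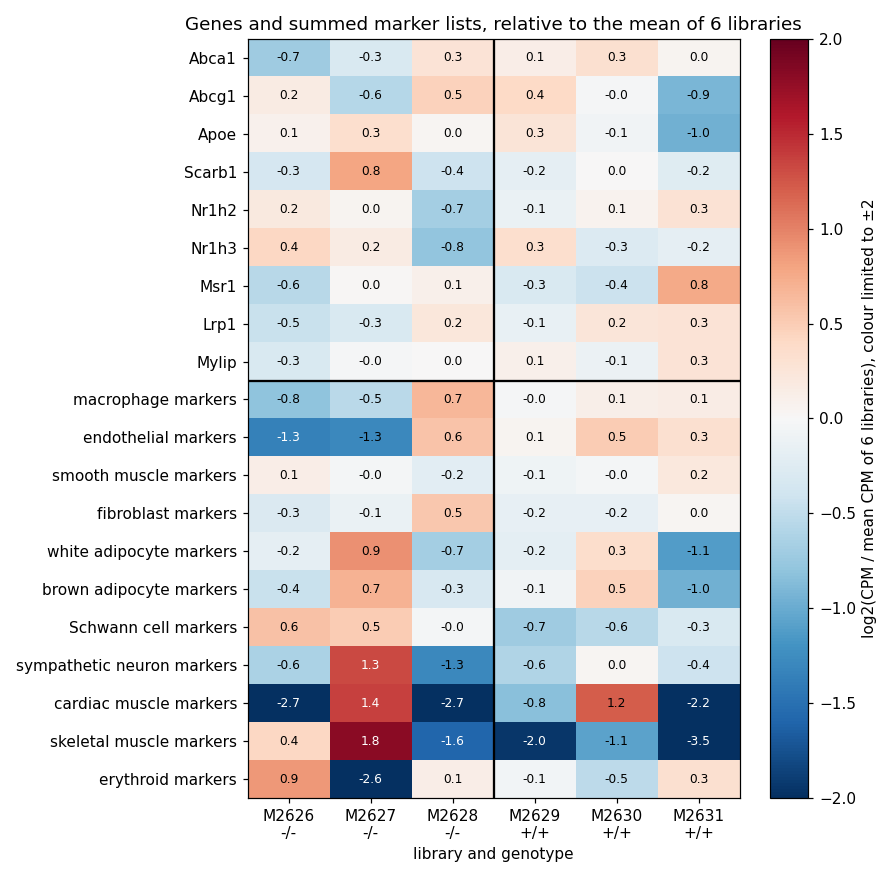
Log2 of the CPM of each library over the mean of the 6 libraries, for the 9 tested genes (top) and for the summed markers of 11 cell types (bottom), with colour limited to ±2. *Abca1*, *Lrp1*, the endothelial and the macrophage markers are low in M2626 and M2627 and not in M2628, and *Scarb1* is high in M2627 with the adipocyte markers. *Msr1* and *Apoe* are not low in M2627.

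Other genes of the pathway were read from 6 lists of 91 genes, of which 70 were tested. At an unadjusted p-value under 0.05, 0 were higher and 1 was lower in miRNA-26b-/- mice, and none had an adjusted p-value under 0.05. Groups did not overlap for 6 of the 70. These are 1.43% and 8.57% of the 70, against the 6.47% and 11.5% given above for all genes tested, and the median log2 fold change was 0.02.

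The gene that was lower was *Smpdl3a*, which encodes a secreted phosphodiesterase and was placed in the list of other LXR targets. It had 115, 96.1 and 117 CPM in the miRNA-26b-/- and 129, 147 and 155 CPM in the miRNA-26b+/+ libraries, without overlap. Its log2 fold change was -0.40 (standard error 0.159, unadjusted p = 0.0249 and adjusted p = 0.736 from edgeR). It was the only one of 14 tested genes in that list to pass, with 7 of them above and 7 below 0. Whether LXR drives *Smpdl3a* in mouse aorta was not tested. *Arl4c*, whose 8mer is printed above, had 10.9, 5.87 and 9.18 CPM and 23.0, 7.83 and 10.5 CPM, which gave -0.72 on the log2 scale (standard error 0.457, adjusted p = 0.841 from edgeR), with M2629 far above the rest. Of the other listed genes with an 8mer, *Abca5* had a log2 fold change of 0.75 (adjusted p = 0.769 from edgeR), *Soat1* 0.03 and *Nceh1* -0.46, and *Lrp1b* fell below the filter.

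Of 9 tested partners, co-regulators and oxysterol enzymes, 0 passed the unadjusted threshold, and the most abundant per kilobase were *Rxra*, the dimer partner of the LXRs (log2 fold change 0.02), and the coactivator gene *Ncoa3* (-0.26). *Ncoa1*, *Ncoa2* and *Cyp27a1*, named because they are 3 of the 6 genes whose groups did not overlap, had log2 fold changes of 0.16, -0.35 and 0.45. CYP27A1 makes the LXR ligand 27-hydroxycholesterol from cholesterol. Of 6 tested lipid transporters and apolipoproteins 0 passed, and *Clu* (clusterin) and *Abca2* had log2 fold changes of -0.18 and -0.14. *Apoa1*, *Apob* and other genes of liver and gut lipoproteins fell below the filter.

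None of the 14 tested genes of cholesterol traffic and storage passed, with 10 above and 4 below 0, and the abundant *Cav1* (0.01) and *Npc2* (0.07) had log2 fold changes close to 0. Of 15 other scavenger receptor genes none passed, and the most abundant per kilobase, *Scarb2* of the lysosome and *Scara3*, had log2 fold changes of -0.12 and 0.09. None of 12 tested genes of the LDL receptor family and its partners passed either. In that list *Sorl1* (-0.23) and *Lrp10* (0.19) were the other genes without overlap between groups, and *Lrpap1*, the chaperone of LRP1, had a log2 fold change of -0.06.

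LXR dimers bind a DR4 element, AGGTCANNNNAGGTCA, and this was searched on both strands of the RefSeq promoter windows (GRCm38.p6, 250 bases before to 50 after each start), which cover 7 of the 10 genes in 10 windows. *Abcg1*, *Scarb1* and *Msr1* had no window, and the search could not find elements farther from a start. With up to 0, 1 or 2 mismatches in the fixed letters, 0 of the 10 windows held one, against 0.0152%, 0.25% and 3.02% of 32851 windows. A limit of 3 mismatches was looked at only after these had given none: 1 of 10 windows then held an element, against 21.9% of all. It lies in the *Abca1* promoter, 67 bases before the start, and reads on its own strand:
Abca1 element: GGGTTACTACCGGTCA

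Among the 13464 tested genes with an annotated 3′ UTR, the median log2 fold change was 0.00 for the 2881 with any site, *Abca1* included. It was 0.02 for the 662 with an 8mer. Over all 16017 genes tested, with or without an annotated 3′ UTR, the median was 0.01. *Abca1*, with 1 7mer-A1 and 1 7mer-m8, stood at -0.36.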

How the data were processed

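RNA of 6 aortas was sequenced from TruSeq v2 libraries, which do not keep strand. Alignment by the authors was with STAR against GRCm38 (mm10), and they deposited raw counts per gene from featureCounts 1.6.4, made over GENCODE M21 exons without strand, with a read over several genes counted for each (the methods name M23). A second deposited table holds log2 CPM and the authors' own comparison, and was not used. A gene was kept if its counts summed to 2 or more and exceeded 1 CPM in 2 or more libraries, scaled by TMM (factors 0.982 to 1.015), and put to edgeR 4.0.16's quasi-likelihood test (prior count 0.125), with Benjamini-Hochberg adjustment over all genes tested and 95% intervals from the t distribution. RPKM used the deposited exon length. DESeq2 1.42.0 and voom of limma 3.58.1 were alternatives. The code was tested on simulated data, where it missed the first mark set for passing. That mark was restated after the result was seen, with the simulation unchanged. No source used here gives litters or batches, and edgeR's p-values set the difference between genotypes against the spread between libraries of a genotype.

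The 10 genes, the 6 pathway lists and the marker lists were chosen with earlier results of these data known. Named were the 10 genes, *Arl4c*, and in each list those under an unadjusted p-value of 0.05 or else the 2 most abundant per kilobase; genes without overlap between groups were named after their values were seen.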

Additional observations from a re-analysis of the deposited data

How the results depend on the processing

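None of the 9 tested genes had an adjusted p-value under 0.05 under any of the 14 alternatives. Of 126 values for single genes, 116 kept their sign. The count of the 9 at an unadjusted p-value under 0.05 was 0 in all but 1 alternative, with a range of 0 to 2 when 1 library was left out. The count over all genes at that threshold ranged from 686 (without M2631) to 1692 (without M2628). At an adjusted p-value under 0.05, 1 gene passed with all libraries, 0 to 82 with 1 library left out, 57 with DESeq2, 3 with limma voom and 0 with the earlier quasi-likelihood method; the cause was not tested. *Nr1h3* was -0.035 with limma voom. With 1 library left out, log2 fold changes ranged from -0.20 to 0.29 for *Nr1h3* (-0.20, -0.07, -0.08 and -0.07 without M2626, M2627, M2630 and M2631), -0.24 to 0.51 for *Scarb1*, -0.16 to 0.47 for *Abcg1* (-0.11 without M2628), -0.35 to 0.035 for *Nr1h2* and -0.41 to 0.26 for *Msr1*. Ranges for the other genes stand beside their values. No paired analysis was possible because no label pairs mice across genotypes, and the replicate numbers used here only name samples in their listed order. With 3 mice per genotype and 64 to 188 counts of *Msr1* and at most 35 of *Olr1*, only large changes in these genes were detectable at this depth.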
